A study of Mus musculus with 9 samples.

Results

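The genes described here are 34 interferon response and antigen presentation genes in ST2 cells, a mouse bone marrow stromal line that the submitters class as mesenchymal stem cells. They were taken by gene symbol from a list that was drawn up with earlier results of these data known, no threshold on measured values was applied, and all 34 were found among the 54532 genes of the deposited count table. A filter on low counts left 33 of them among 14004 genes tested, and Oasl1 was not tested. RNA was sequenced from wild-type cells of this single line in 9 libraries, 3 for each of 3 groups held for 72 h. The first group received vehicle, the second 50 ng/ml recombinant human Wnt3a (rhWnt3a), and the third rhWnt3a with 20 µM OSMI, an inhibitor of O-GlcNAc transferase (OGT), the enzyme that attaches the sugar O-GlcNAc to proteins. The sample titles give both agents for the third group, whereas its treatment label gives OSMI alone. The titles were followed here, and no group received OSMI without rhWnt3a.

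Interferons are secreted proteins that cells release after sensing foreign nucleic acid, and type I interferons signal through the receptor pair IFNAR1 and IFNAR2, the kinases JAK1 and TYK2, and a complex called ISGF3 that contains STAT2 and IRF9. ISGF3 binds the interferon-stimulated response element (ISRE) in promoters, whereas the gamma-activated site (GAS) is bound after interferon gamma. The induced genes encode proteins that act on viral RNA or viral release, regulators that sustain or end the response, and the machinery that cuts cytosolic proteins into peptides and shows them on major histocompatibility complex (MHC) class I molecules. Many cell types keep a basal level of these transcripts without infection.

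Promoter windows from RefSeq (GRCm38.p6, 250 bases before to 50 bases after each annotated start) were found for 28 of the 34 genes. The ISRE core, searched on both strands as 2 copies of GAAA with 2 bases of any kind between them, was present in 11 of the 28 (39.3%) and in 3.99% of the 27025 genes with a window. The GAS core, searched as TTCNNNGAA on both strands, was present in 6 of the 28 (21.4%) and in 9.55% of all genes with a window. ISRE cores lay in 6 of 12 effector genes, 2 of 3 guanylate-binding and PARP genes, 1 of 4 regulators, 1 of 3 class I genes and the 1 RNA sensor with a window (Ifih1), and in none of the 3 immunoproteasome or 2 peptide loading genes with a window. Such a match is a string of letters and not a measured binding site. The stretches below are shown because they hold the ISRE cores of 6 genes that fell in the sections that follow, from the antiviral effectors, a guanylate-binding protein and the class I light chain; they are examples and not a ranking. Each is written 5′ to 3′ on the gene's own strand, and capitals mark the ISRE core or overlapping cores (copies of TTTC are the same core read on the opposite strand).
Ifit3: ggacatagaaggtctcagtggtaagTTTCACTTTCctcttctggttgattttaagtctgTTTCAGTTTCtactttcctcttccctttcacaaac
Ifit1: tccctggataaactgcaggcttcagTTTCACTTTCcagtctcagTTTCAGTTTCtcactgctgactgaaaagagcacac
Isg15: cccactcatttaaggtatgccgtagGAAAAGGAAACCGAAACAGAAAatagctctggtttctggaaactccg
Bst2: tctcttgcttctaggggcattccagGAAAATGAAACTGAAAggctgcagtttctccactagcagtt
Gbp3: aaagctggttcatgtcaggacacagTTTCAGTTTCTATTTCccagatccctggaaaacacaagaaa
B2m: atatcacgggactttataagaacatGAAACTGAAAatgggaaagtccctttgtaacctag
In the same order the stretches are at chr19:34583348-34583441 (plus strand), chr19:34640760-34640838 (plus strand), chr4:156200850-156200921 (minus strand), chr8:71537562-71537627 (minus strand), chr3:142559974-142560039 (plus strand) and chr2:122147523-122147582 (plus strand). Isg15 carried 3 overlapping cores, Ifit3 and Ifit1 each carried 2 separate cores on the opposite strand, Bst2 and Gbp3 each carried 2 overlapping cores, and B2m carried 1.

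The libraries held 16135898 to 17583945 counts, so that 3 counts, taken as the floor, corresponded to 0.170 to 0.191 counts per 1000000 (CPM, on totals scaled by the TMM method), a limit that covers counting error only. One library of each group stood apart from the other libraries of its group over all genes: vehicle replicate 3, rhWnt3a replicate 2 and rhWnt3a with OSMI replicate 3. The leading axis of within-group variation took 54.8% of that variance over 13971 genes, with the 33 tested genes left out, and it moved with gene length. The median deviation of 1849 genes shorter than 1500 bases from their group means was 0.12, 0.27 and -0.37 on the log2 scale in these 3 libraries, and that of 7064 genes longer than 4000 bases was -0.10, -0.13 and 0.10. The counts below are therefore given with and without these 3 libraries. They were left out because they deviated, so the spread in the fits without them is narrowed by that choice. The p-values of those fits understate the spread. Stromal transcripts (Col1a1, Col1a2, Vim, Pdgfrb and 6 others) summed to 18998 to 25637 CPM with vehicle and 15856 to 18720 CPM with rhWnt3a. With both agents their sum was 8578 to 16301 CPM. However, 2 markers of mesenchymal stem cells were near absence, Thy1 with at most 4 counts and Eng with 11 to 49 counts per library. Of 10 macrophage and myeloid markers, Itgam was at 0 in all libraries and Ptprc, Adgre1 and Tyrobp at no more than 2 counts. Their sum, mostly Cd14 and Lyz2, was 13.4 to 20.0 CPM with vehicle, 7.30 to 11.4 CPM with rhWnt3a and 3.38 to 10.5 CPM with both agents, and its part in the results below was not tested. Lymphocyte markers summed to at most 0.319 CPM and endothelial markers to at most 1.28 CPM. Axin2, a direct target of Wnt signaling, was 0.244, 0.892 and 0.566 CPM with vehicle, 21.6, 16.8 and 18.8 CPM with rhWnt3a and 12.3, 10.6 and 17.3 CPM in the third group. It rose against vehicle in both (5.06 ± 0.36, adjusted p = 3.67e-05, and 4.55 ± 0.36, adjusted p = 4.78e-05). Of the other Wnt targets examined, Lef1 and Tcf7 rose with rhWnt3a (2.28 and 2.75) and Notum was not called (2.28). In the third group Lef1, Tcf7 and Notum were above vehicle but not called (0.93, 1.84 and 0.86, adjusted p = 0.199, 0.0700 and 0.456). Nkd1 was not tested. The rise of Axin2 in the third group goes with its titles, but no group shows what OSMI alone does to these genes.

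Interferon response and antigen presentation genes fell together in cells given rhWnt3a. Of the 33 tested genes, 29 fell, none rose and 4 did not pass the test (edgeR quasi-likelihood test, Benjamini-Hochberg adjusted p under 0.05 and log2 fold change beyond 0.5), against 8.78% of all tested genes called in either direction, 2.92% called higher and 5.86% called lower. The median log2 fold change was -1.74, beside 0.04 over all tested genes, and the estimates ran from -0.43 for Irf1 to -3.95 for Ifit3. In 32 of the 33 genes, every rhWnt3a library was below every vehicle library, which was true of 14.2% of all tested genes; Psmb8 was the exception. The decrease was 4-fold or more in 14 genes, between 2-fold and 4-fold in 15 and smaller in 4. Without the 3 libraries that stood apart, 32 of the 33 genes fell and the median was -1.88, beside 2557 of 14111 genes called, 1611 of them lower. Leaving out 1 library gave 20 genes called without rhWnt3a replicate 1 and 23 to 30 without any other library. Each of the 9 calls lost in this way (B2m, Dhx58, Gbp2, Ifi44, Parp14, Parp9, Rsad2, Stat2 and Tap2) was lost without rhWnt3a replicate 1, and their adjusted p was 0.050 to 0.183 in the fits that lost them. All 33 genes also passed the count filter when the vehicle libraries were ignored, so none was tested only because of its vehicle level. RNA was taken from whole cultures, and fewer cells expressing a gene cannot be told apart from less RNA per cell.

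**Figure D1:**
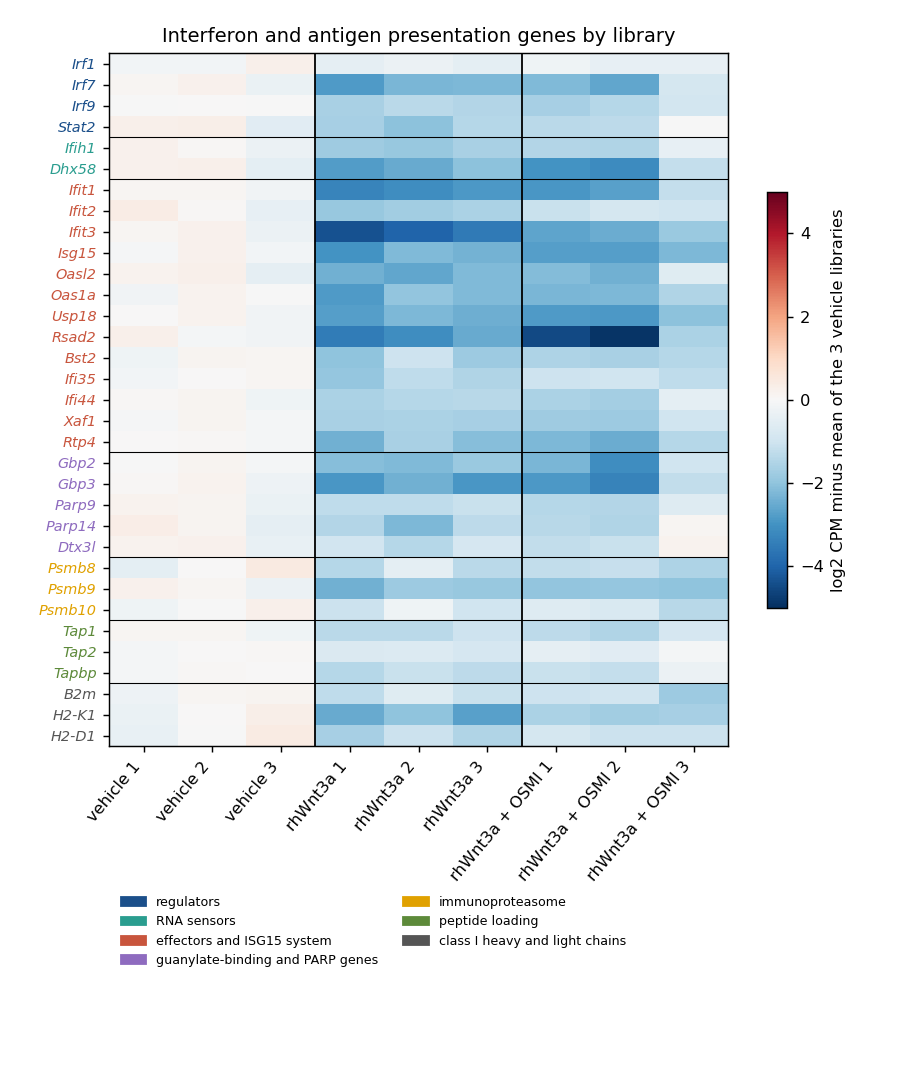
Levels of the 33 tested genes (rows, ordered by role, with the role shown by color) in the 9 libraries (columns), as log2 CPM minus the mean of the 3 vehicle libraries (color scale from -5 to 5). The 3 rhWnt3a columns and the 3 columns with both agents are blue in nearly every row, and replicate 3 with OSMI is paler than replicates 1 and 2 in most rows.

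Among the transcriptional regulators, Stat2, Irf9 and Irf7 fell and Irf1 did not pass the test. Stat2 encodes the ISGF3 subunit that is shared by type I and III interferon signaling, and per kilobase of gene length it was the most abundant of the 4 regulators, at 65.5 CPM per kb with vehicle. Stat2 measured 443, 465 and 255 CPM in the vehicle libraries, 117, 91.0 and 139.8 CPM with rhWnt3a and 145, 149.9 and 368 CPM with rhWnt3a and OSMI. Its vehicle and rhWnt3a values did not overlap, vehicle replicate 3 was the lowest of its group, and the log2 fold change was -1.74 ± 0.38, adjusted p = 0.0180. Irf9, the DNA-binding subunit of ISGF3, measured 111, 114 and 110.3 CPM in the vehicle libraries, 36.1, 43.9 and 40.9 CPM with rhWnt3a and 35.7, 41.3 and 58.6 CPM with rhWnt3a and OSMI. It was lower in the 3 rhWnt3a libraries by 2.77-fold (-1.47 ± 0.18, adjusted p = 0.000720), with the narrowest spread among vehicle libraries of the 3 regulators that fell. Irf7, which amplifies interferon production once it has been induced, measured 44.8, 48.8 and 33.3 CPM in the vehicle libraries, 5.78, 8.58 and 8.62 CPM with rhWnt3a and 9.01, 6.83 and 22.6 CPM with rhWnt3a and OSMI. It was 5.51-fold lower with rhWnt3a (-2.46 ± 0.41, adjusted p = 0.00404). Irf1, which responds to interferon gamma and to inflammatory signals, was 39.6, 39.9 and 52.8 CPM with vehicle, 31.7, 35.5 and 31.1 CPM with rhWnt3a and 37.4, 32.8 and 32.8 CPM with both agents, and its difference was -0.43 ± 0.15 (adjusted p = 0.119).

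The 2 cytosolic RNA sensors in the list also fell. Ifih1, which encodes MDA5, a sensor of long double-stranded RNA, was 32.8, 29.1 and 23.2 CPM in the vehicle libraries, 8.09, 7.39 and 9.15 CPM with rhWnt3a and 10.2, 9.81 and 21.0 CPM with rhWnt3a and OSMI. The groups were separate and the log2 fold change with rhWnt3a was -1.79 ± 0.29, adjusted p = 0.00375. Dhx58 encodes LGP2, a relative that modulates MDA5, and it was 29.3, 30.8 and 18.3 CPM in the vehicle libraries, 3.59, 4.38 and 6.04 CPM with rhWnt3a and 3.14, 2.75 and 11.2 CPM with rhWnt3a and OSMI. It was 5.59-fold lower with rhWnt3a (-2.48 ± 0.50, adjusted p = 0.0111). An annotated antisense gene, Dhx58os, overlaps Dhx58, and since the strand setting of the counting is not known, reads of the 2 genes cannot be told apart.

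Ifit3 had the largest decrease of the 33 genes. The products of the IFIT genes bind foreign or unmodified 5′ ends of RNA and block their translation. Ifit2, Ifit3 and Ifit1 lie in this order on the plus strand of chromosome 19 (mm10, chr19:34550694-34576419, chr19:34583531-34588731 and chr19:34640871-34650009), with 7111 bases between Ifit2 and Ifit3. Ifit3 was 303, 333 and 229.8 CPM in the vehicle libraries, 13.9, 17.8 and 24.2 CPM with rhWnt3a and 45.7, 50.9 and 78.5 CPM with rhWnt3a and OSMI. It fell 15.5-fold with rhWnt3a (-3.95 ± 0.29, adjusted p = 4.24e-05), and its 3 groups did not overlap at all. Ifit1 was 325, 322 and 265 CPM in the vehicle libraries, 30.6, 34.6 and 41.0 CPM with rhWnt3a and 40.3, 45.7 and 132 CPM with rhWnt3a and OSMI. It was 8.58-fold lower with rhWnt3a (-3.10 ± 0.42, adjusted p = 0.00124). Ifit2, which lacked an ISRE core in its window but held a GAS core, was 115, 92.3 and 66.8 CPM in the vehicle libraries, 24.2, 26.4 and 29.9 CPM with rhWnt3a and 40.8, 48.6 and 45.0 CPM with rhWnt3a and OSMI, a smaller decrease of 3.40-fold (-1.77 ± 0.20, adjusted p = 0.000423). Ifit3 has a near-identical copy, Ifit3b: 97.4% of its transcript matches Ifit3b at 97% identity or more, so reads could have been split between them. Ifit3b, at 58.9, 56.4 and 38.4 CPM with vehicle, 2.56, 3.41 and 3.29 CPM with rhWnt3a and 3.99, 3.04 and 8.74 CPM with both agents, fell as well (-4.05 ± 0.38, adjusted p = 0.000166).

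Genes of the ISG15 system fell in parallel. ISG15 is a small ubiquitin-like protein attached to other proteins during the response, and USP18 removes it and dampens signaling at IFNAR2. Isg15 was 93.0, 112 and 88.1 CPM in the vehicle libraries, 12.1, 21.1 and 18.6 CPM with rhWnt3a and 14.2, 14.1 and 20.4 CPM with rhWnt3a and OSMI. Usp18 was 137, 151 and 119.6 CPM in the vehicle libraries, 19.8, 28.3 and 24.8 CPM with rhWnt3a and 18.8, 18.2 and 32.7 CPM with rhWnt3a and OSMI. With rhWnt3a Isg15 was 5.65-fold lower (-2.50 ± 0.23, adjusted p = 0.000166) and Usp18 5.59-fold lower (-2.48 ± 0.24, adjusted p = 0.000235), and in both genes the libraries with both agents overlapped those with rhWnt3a alone. A long noncoding gene on the opposite strand, Gm44148, overlaps Usp18 over 15715 bases.

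The oligoadenylate synthetase family senses double-stranded RNA and activates RNase L, although not every member has that enzymatic activity. Oasl2 was 172, 181 and 111 CPM in the vehicle libraries, 28.3, 25.2 and 32.9 CPM with rhWnt3a and 33.3, 28.9 and 99.8 CPM with rhWnt3a and OSMI. Oas1a was 31.1, 40.0 and 35.3 CPM in the vehicle libraries, 4.87, 8.87 and 7.60 CPM with rhWnt3a and 7.20, 7.29 and 12.4 CPM with rhWnt3a and OSMI. Both fell, by 5.38-fold (-2.43 ± 0.44, adjusted p = 0.00653) and 4.98-fold (-2.32 ± 0.27, adjusted p = 0.000589). All of the Oas1a transcript matches its neighbor Oas1g at 97% identity or more, and Oas1g itself fell (-3.34 ± 0.45, adjusted p = 0.00121). Oasl1, the member that was not tested, had 5, 5 and 3 counts with vehicle, 0 in all 3 rhWnt3a libraries and 0, 2 and 0 counts with both agents, which is at or near the floor of 3 counts in every library.

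Rsad2 encodes viperin, an enzyme that makes a chain-terminating nucleotide. It was 8.25, 6.31 and 6.05 CPM in the vehicle libraries, 0.487, 0.682 and 1.08 CPM with rhWnt3a and 0.181, 0.115 and 2.21 CPM with rhWnt3a and OSMI. The vehicle and rhWnt3a libraries were separate and the log2 fold change was -3.18 ± 0.75, adjusted p = 0.0249. Bst2 encodes tetherin, which holds budding virus at the cell surface, and per kilobase it was the most abundant effector, at 482 CPM per kb with vehicle. It was 369, 476 and 462 CPM in the vehicle libraries, 106, 209 and 124 CPM with rhWnt3a and 149, 142 and 161 CPM with rhWnt3a and OSMI. The decrease was 2.97-fold (-1.57 ± 0.24, adjusted p = 0.00259), and rhWnt3a replicate 2 was the highest of its group.

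The other antiviral effectors fell as well. Ifi44 was 178, 189 and 149 CPM in the vehicle libraries, 56.9, 63.1 and 65.0 CPM with rhWnt3a and 57.0, 52.5 and 121 CPM with rhWnt3a and OSMI (-1.48 ± 0.29, adjusted p = 0.00938). Xaf1, which encodes an antagonist of the apoptosis inhibitor XIAP, was 69.1, 79.5 and 67.4 CPM in the vehicle libraries, 23.5, 24.2 and 22.8 CPM with rhWnt3a and 20.9, 20.1 and 35.8 CPM with rhWnt3a and OSMI (-1.62 ± 0.21, adjusted p = 0.00114). Xaf1 had the tightest rhWnt3a group of this set, with values from 22.8 to 24.2 CPM. Ifi35 was 40.8, 46.3 and 48.9 CPM in the vehicle libraries, 11.8, 18.8 and 16.0 CPM with rhWnt3a and 22.3, 22.5 and 18.7 CPM with rhWnt3a and OSMI (-1.54 ± 0.18, adjusted p = 0.000569). Rtp4, which encodes a chaperone-like protein of receptor transport, was 87.5, 89.5 and 80.3 CPM in the vehicle libraries, 16.1, 27.4 and 19.7 CPM with rhWnt3a and 18.1, 15.2 and 31.5 CPM with rhWnt3a and OSMI (-2.02 ± 0.28, adjusted p = 0.00142). In none of these 4 genes did the vehicle and rhWnt3a libraries overlap. All 13 tested effectors fell, with a median log2 fold change of -2.32.

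**Figure D2:**
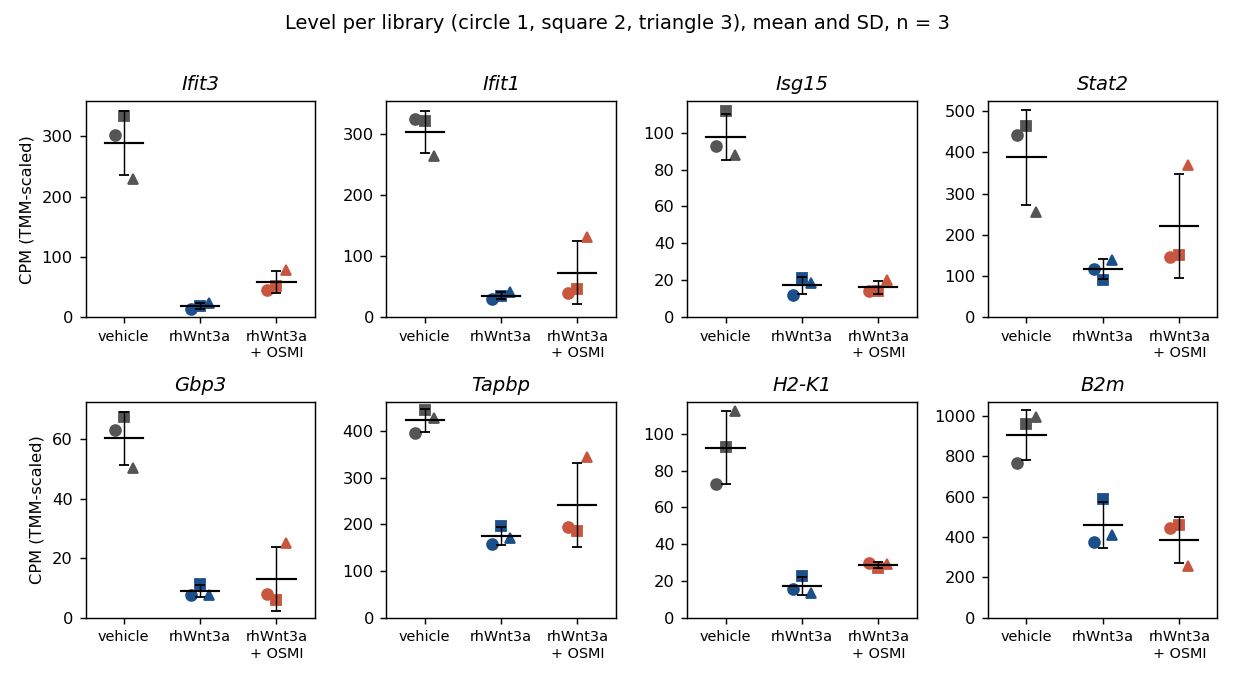
CPM of 8 genes in each library (circle, replicate 1; square, replicate 2; triangle, replicate 3), with the group mean (bar) and SD (n = 3); the vertical axes start at 0 and differ between genes. In all 8 panels the vehicle points lie above the rhWnt3a points, and in all panels but H2-K1 and B2m the triangle of the group with both agents lies above its circle and square.

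Guanylate-binding proteins are interferon-induced GTPases that assemble on pathogen membranes, and PARP9, PARP14 and the ubiquitin ligase DTX3L modify proteins of the response. Gbp3, the most abundant of these 5 genes per kilobase at 18.5 CPM per kb with vehicle, was 63.2, 67.5 and 50.4 CPM in the vehicle libraries, 7.79, 11.3 and 7.78 CPM with rhWnt3a and 8.10, 5.80 and 25.3 CPM with rhWnt3a and OSMI. It fell 6.73-fold (-2.75 ± 0.47, adjusted p = 0.00517). Gbp2, its neighbor on chromosome 3, was 36.8, 40.7 and 35.3 CPM in the vehicle libraries, 8.58, 7.96 and 10.3 CPM with rhWnt3a and 7.56, 4.25 and 18.8 CPM with rhWnt3a and OSMI. It fell 4.20-fold (-2.07 ± 0.42, adjusted p = 0.0129). Parp9 was 88.1, 85.4 and 62.3 CPM in the vehicle libraries, 32.4, 32.5 and 36.2 CPM with rhWnt3a and 29.2, 28.2 and 49.9 CPM with rhWnt3a and OSMI, with a decrease of 2.33-fold (-1.22 ± 0.23, adjusted p = 0.00822). Parp14 was 99.7, 85.9 and 57.2 CPM in the vehicle libraries, 28.4, 16.3 and 32.1 CPM with rhWnt3a and 30.5, 28.1 and 85.1 CPM with rhWnt3a and OSMI. Its decrease was close to the limit of the test (-1.66 ± 0.44, adjusted p = 0.0416). Dtx3l was 83.8, 85.2 and 56.6 CPM with vehicle, 37.5, 27.6 and 41.2 CPM with rhWnt3a and 31.6, 34.3 and 82.6 CPM with both agents, and although its vehicle and rhWnt3a libraries were separate, its difference did not pass the test (-1.08 ± 0.35, adjusted p = 0.0983). Dtx3l and Parp9 are divergent neighbors whose 5′ ends overlap by 682 bases on chromosome 16, so unstranded reads there could belong to either.

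The immunoproteasome replaces 3 catalytic subunits of the standard proteasome, and of its genes Psmb8, Psmb9 and Psmb10 only Psmb9 passed the test with rhWnt3a. Psmb9 was 3.18, 2.93 and 2.21 CPM in the vehicle libraries, 0.426, 0.682 and 0.658 CPM with rhWnt3a and 0.605, 0.631 and 0.583 CPM with rhWnt3a and OSMI. It fell 4.65-fold (-2.22 ± 0.31, adjusted p = 0.00139) from a level that was already the lowest per kilobase of the 33 genes, at 0.757 CPM per kb. Psmb8 was 3.79, 5.48 and 7.46 CPM in the vehicle libraries, 1.95, 3.81 and 2.03 CPM with rhWnt3a and 2.24, 2.35 and 1.75 CPM with rhWnt3a and OSMI. Its vehicle and rhWnt3a libraries overlapped by a narrow margin and it did not pass the test (-1.10 ± 0.33, adjusted p = 0.0755). Psmb10, the most abundant of the 3 per kilobase, was 23.9, 27.3 and 33.0 CPM in the vehicle libraries, 13.0, 23.9 and 13.7 CPM with rhWnt3a and 17.9, 16.2 and 10.7 CPM with rhWnt3a and OSMI. It did not pass the test either (-0.73 ± 0.27, adjusted p = 0.148), and both genes have annotated antisense partners. None of 14 genes for standard proteasome subunits was called in any comparison. Their median log2 fold change was 0.12 with rhWnt3a, -0.50 when OSMI was added and -0.33 with both agents against vehicle. In the latter comparisons all 14 estimates were below 0.

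Peptides are carried into the endoplasmic reticulum by the TAP1 and TAP2 transporter and loaded onto class I molecules with the help of tapasin, encoded by Tapbp. Tapbp, the most abundant of the 3 per kilobase at 128 CPM per kb with vehicle, was 395, 445 and 429 CPM in the vehicle libraries, 159, 196 and 171 CPM with rhWnt3a and 194, 186 and 344 CPM with rhWnt3a and OSMI. Its decrease was 2.41-fold (-1.27 ± 0.23, adjusted p = 0.00669). Tap1 was 52.8, 53.1 and 42.4 CPM in the vehicle libraries, 19.0, 19.1 and 24.0 CPM with rhWnt3a and 19.8, 17.4 and 27.3 CPM with rhWnt3a and OSMI, a decrease of 2.39-fold (-1.26 ± 0.19, adjusted p = 0.00264). Tap2 was 23.5, 25.2 and 26.3 CPM in the vehicle libraries, 14.9, 15.6 and 13.9 CPM with rhWnt3a and 18.1, 16.6 and 23.1 CPM with rhWnt3a and OSMI. Its decrease was the smallest of those that passed the test (-0.75 ± 0.15, adjusted p = 0.0121). Psmb9, Tap1, Psmb8 and Tap2 lie side by side on chromosome 17 (mm10, from chr17:34181988-34187764 to chr17:34203527-34216321). Psmb9 and Tap1 point away from each other and overlap by 212 bases at their 5′ ends, and with rhWnt3a these 2 neighbors had log2 fold changes of -2.22 and -1.26.

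The class I molecule itself consists of a heavy chain, here H2-K1 or H2-D1, and beta-2 microglobulin, encoded by B2m. B2m was the most abundant of the 33 genes per kilobase, at 1053 CPM per kb with vehicle. It was 764, 960.4 and 993 CPM in the vehicle libraries, 376, 589 and 411 CPM with rhWnt3a and 444, 458 and 255 CPM with rhWnt3a and OSMI. Its level was 1.97-fold lower with rhWnt3a (-0.98 ± 0.25, adjusted p = 0.0395), with rhWnt3a replicate 2 the highest of its group; Patl2 overlaps it on the opposite strand. H2-K1 was 72.7, 92.8 and 112 CPM in the vehicle libraries, 15.6, 22.6 and 13.6 CPM with rhWnt3a and 30.0, 27.0 and 29.1 CPM with rhWnt3a and OSMI. It fell 5.35-fold (-2.42 ± 0.22, adjusted p = 0.000139), with every rhWnt3a library far below every vehicle library. H2-D1 was 81.3, 102 and 137 CPM in the vehicle libraries, 32.7, 49.4 and 37.2 CPM with rhWnt3a and 57.4, 49.7 and 50.0 CPM with rhWnt3a and OSMI, a decrease of 2.69-fold (-1.43 ± 0.21, adjusted p = 0.00237). In the same search as for Ifit3, no other gene matched the H2-K1 or H2-D1 transcript at 97% identity or more.

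**Figure D3:**
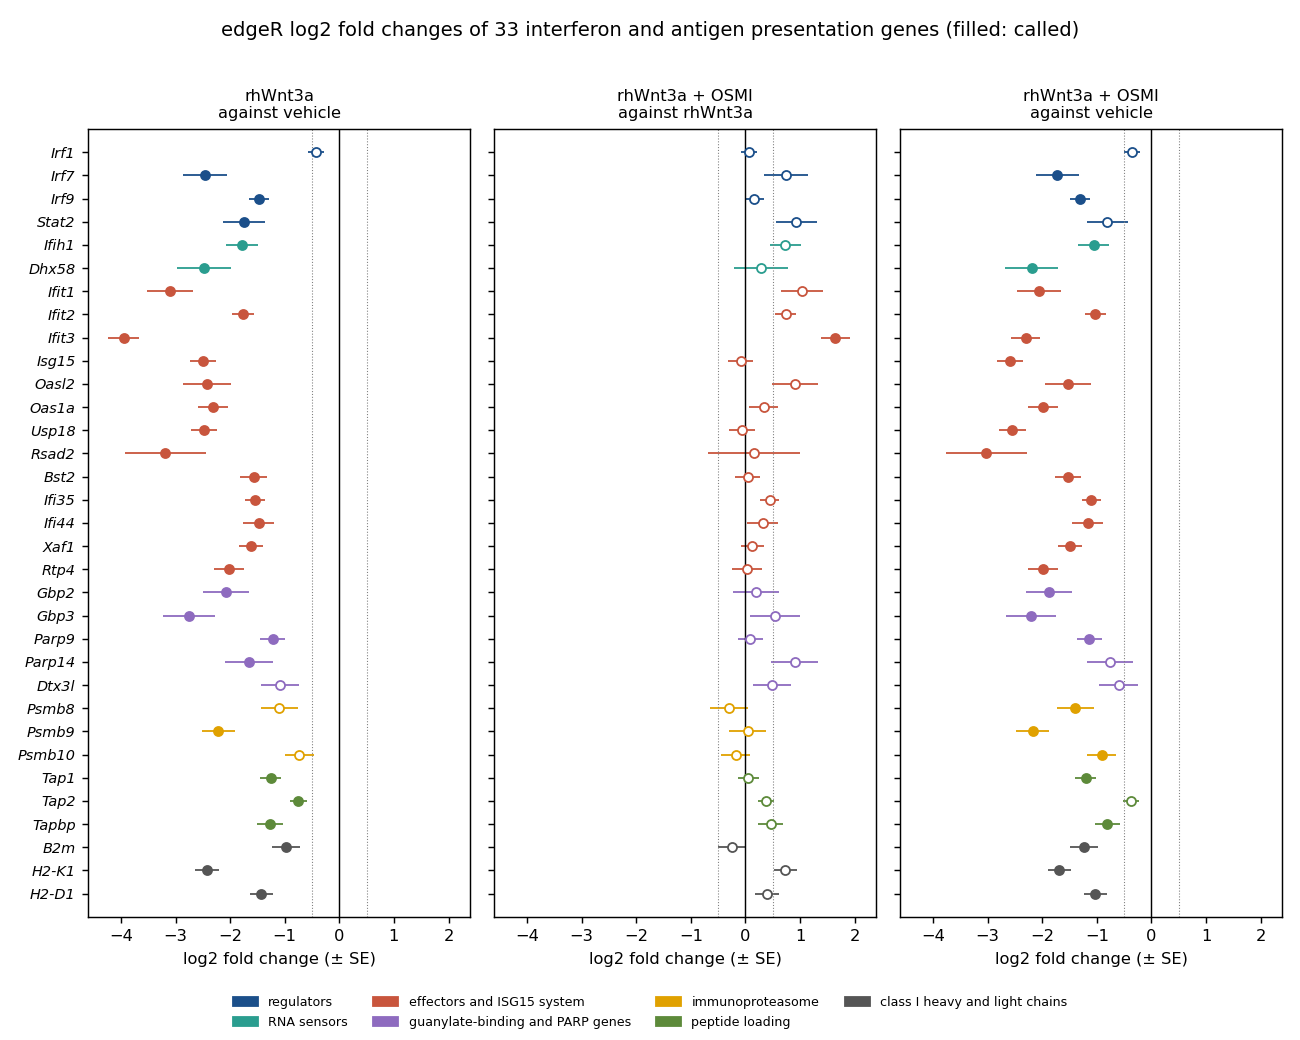
Log2 fold changes (points) with standard errors (bars) of the 33 tested genes in the 3 comparisons, colored by role; filled points passed the test, and dotted lines mark log2 fold changes of -0.5 and 0.5. In the left and right panels all 33 points lie below 0, whereas in the middle panel 28 lie above 0 and only Ifit3 is filled.

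The addition of OSMI to rhWnt3a changed 1 of the 33 genes by the test: Ifit3 rose by 1.65 ± 0.26 on the log2 scale (adjusted p = 0.00947), against 4.74% of all tested genes called in either direction, 1.69% called higher and 3.05% called lower. This comparison shares its rhWnt3a libraries with the one above. The rise left Ifit3 4.94-fold below vehicle (-2.31 ± 0.27, adjusted p = 0.000460). Among the other 32 genes the estimates ran from -0.30 to 1.04 and the median over all 33 was 0.32 (-0.01 over all tested genes). In 7 genes every library with both agents was above every rhWnt3a library (Ifit3, Ifit2, Stat2, Ifih1, Tap2, H2-K1 and H2-D1), a state found in 16.7% of all tested genes. Beside Ifit3, the differences nearest the threshold were those of Ifit2 (0.74 ± 0.19, adjusted p = 0.0575) and H2-K1 (0.73 ± 0.21, adjusted p = 0.0817). Estimates were below 0 in 5 genes, Psmb8 (-0.30 ± 0.35), B2m (-0.25 ± 0.25), Psmb10 (-0.18 ± 0.27), Isg15 (-0.09 ± 0.23) and Usp18 (-0.07 ± 0.24), and in these 5 genes the libraries with and without OSMI overlapped.

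Much of the estimated rise rested on 1 library, which alone among those with both agents had a negative sign on the leading within-group axis. Leaving it out therefore also changes the balance of that axis between the groups, and the library and the axis cannot be told apart. Replicate 3 with both agents was the highest of its group in 24 of the 33 genes (42% of all tested genes were highest in that library), and the median deviation of the 33 genes from their group mean was 0.53 in it on the log2 scale, against -0.24 and -0.29 in replicates 1 and 2. Without it, the median difference between the groups with and without OSMI went from 0.32 to 0.01, Ifit3 was still called higher (1.37, adjusted p = 0.0118) and Rsad2, with an estimate of 0.16 over all libraries, was called lower (-2.29, adjusted p = 0.0487). Rsad2 had 3 and 2 counts in replicates 1 and 2 with both agents, at or under the floor of 3 counts, and 8, 12 and 18 with rhWnt3a. Without all 3 libraries that stood apart, which left 2 libraries in each group, 5 genes rose and 3 fell. The libraries left with both agents had the opposite sign on the leading within-group axis from those left in the other groups. OSMI and that axis, which moved with gene length, cannot be told apart in that fit. That fit called 1789 of 14111 genes, 563 higher and 1226 lower, so the share that fell was near that of all genes and the share that rose was above it. Those that rose were Ifit3 (1.33 ± 0.15, adjusted p = 1.00e-06), H2-K1 (0.96 ± 0.12, adjusted p = 7.37e-06), Ifit2 (0.72 ± 0.12, adjusted p = 0.000110), Ifi35 (0.68 ± 0.13, adjusted p = 0.000450) and H2-D1 (0.61 ± 0.10, adjusted p = 0.000194). Those that fell were Rsad2 (-2.36 ± 0.68, adjusted p = 0.0115), Dhx58 (-0.71 ± 0.23, adjusted p = 0.0248) and Gbp2 (-0.69 ± 0.20, adjusted p = 0.0126). In contrast, the estimates of Ifit1, Stat2, Oasl2 and Parp14 went from 1.04, 0.93, 0.91 and 0.90 to 0.26, 0.20, 0.02 and -0.05, none called. Ifit3 was thus called higher in both fits, and H2-K1, H2-D1, Ifit2 and Ifi35 in the latter.

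In the 3 libraries that stood apart, the deviations of the 33 genes varied with gene length, with exceptions. Across the 33 genes, Pearson's r between log gene length and deviation from the group mean was -0.48 in vehicle replicate 3, -0.72 in rhWnt3a replicate 2 and 0.46 in replicate 3 with both agents, and over all 14004 genes it was -0.19, -0.31 and 0.38. These are correlations across genes of 1 library, which share its depth and preparation, and are given as a description. Long members such as Stat2 and Parp14 were low in the first 2 of these libraries and high in the third, and the short B2m was the reverse, with 255 CPM in replicate 3 with both agents and 444 and 458 CPM in replicates 1 and 2. Isg15, the shortest of the 33 genes, went the other way from B2m in vehicle replicate 3 (-0.14) and in replicate 3 with both agents (0.35), and so did Ifit3 (-0.31 and 0.47).

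**Figure D4:**
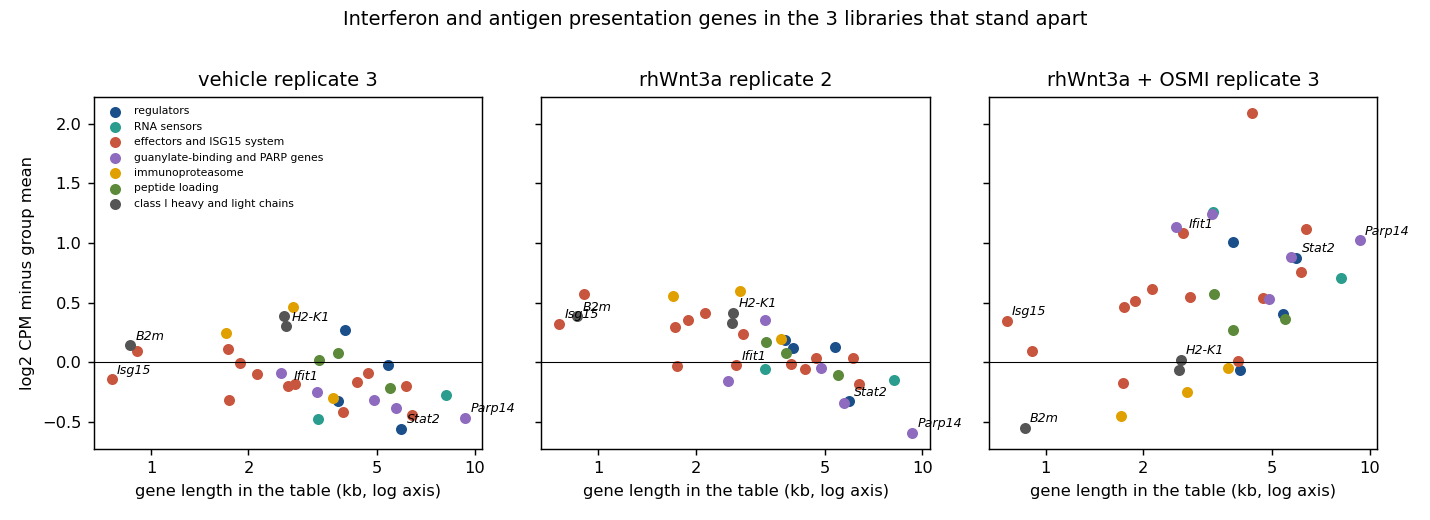
Deviation of each of the 33 tested genes from its group mean (log2 CPM, vertical axis) against gene length in the deposited table (kb, log axis) in vehicle replicate 3, rhWnt3a replicate 2 and replicate 3 with rhWnt3a and OSMI; points are genes colored by role. The points slope downward in the first 2 panels (r of -0.48 and -0.72) and upward in the third (0.46).

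To compare libraries of like kind, the 9 libraries were split by the sign of the within-group axis, a division drawn from the data and not from the study's groups. One side held vehicle replicates 1 and 2, rhWnt3a replicates 1 and 3 and replicate 3 with both agents, and the other held the remaining 4. With rhWnt3a, all 33 genes were lower than with vehicle on both sides, with median differences of -1.83 (2 libraries against 2) and -1.49 (1 against 1) on the log2 scale. With both agents against vehicle, all 33 were again lower on both sides, with medians of -1.19 (1 library against 2) and -1.65 (2 against 1). Arms of 1 library have no replicate check, and these values are given as a description. With OSMI added to rhWnt3a, 30 of 33 genes were higher on the first side (median 0.82, 1 library with OSMI), and 21 of 33 were lower on the second (median -0.13, 1 library without OSMI). In a fit of all 9 libraries with the side as a term, 9 of the 33 genes rose when OSMI was added, none fell and the median was 0.35. The same fit called 4033 of 14004 genes, 1610 higher and 2423 lower. The share of the 33 genes called in either direction was thus near that of all genes, whereas the share called higher was above that of all genes.

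Levels in cells given both agents were also below those with vehicle. Of the 33 genes, 28 fell, none rose and 5 did not pass the test, against 14.2% of all tested genes called in either direction, 4.84% called higher and 9.34% called lower, and the median log2 fold change was -1.40 (-0.01 over all tested genes). Every library with both agents was below every vehicle library in 30 genes, as in 19.5% of all tested genes. This comparison shares its vehicle libraries with the first. The largest decreases were in Rsad2 (-3.02 ± 0.74, adjusted p = 0.0216), Isg15 (-2.59 ± 0.23, adjusted p = 0.000118), Usp18 (-2.55 ± 0.25, adjusted p = 0.000163) and Ifit3. The genes that did not pass were Irf1 (-0.36), Stat2 (-0.81), Parp14 (-0.76), Dtx3l (-0.60) and Tap2 (-0.37). Psmb8 (-1.40 ± 0.34, adjusted p = 0.0213) and Psmb10 (-0.91 ± 0.27, adjusted p = 0.0485) passed here and had not passed with rhWnt3a alone, but with single libraries left out the call of Psmb10 was lost in 8 of 9 fits and that of Psmb8 in 5 of 9, and neither was called when OSMI was added to rhWnt3a (-0.30 ± 0.35, adjusted p = 0.623 and -0.18 ± 0.27, adjusted p = 0.714). In all, 26 genes fell in both comparisons with vehicle. The count of 28 became 32 without the 3 libraries that stood apart, when Stat2 (-1.66 ± 0.08, adjusted p = 1.53e-12), Parp14 (-1.71 ± 0.09, adjusted p = 1.63e-11), Dtx3l (-1.40 ± 0.08, adjusted p = 3.60e-11) and Tap2 (-0.52 ± 0.11, adjusted p = 0.000868) were also called. The vehicle libraries and the libraries with both agents that remained had opposite signs on the leading within-group axis. Treatment and that axis cannot be told apart in that fit, which called 3351 of 14111 genes, 2219 of them lower. Its errors and p-values understate the spread, because deviating libraries were removed. Its estimate for Rsad2 was -5.60, from 3 and 2 counts with both agents. The count of 28 dropped to 16, 18 and 18 when replicate 1 or 2 with both agents or vehicle replicate 2 was left out alone. With 1 library left out, 12 of the 28 calls were lost at least once (Dhx58, Gbp2, Gbp3, Ifi44, Ifih1, Irf7, Oasl2, Parp9, Psmb10, Psmb8, Rsad2 and Tapbp), with adjusted p from 0.050 to 0.162.

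Genes outside the list were examined in the same fit. Of 42 further interferon-induced genes, 33 fell with rhWnt3a and none rose (median -1.65), none was called when OSMI was added, and 30 fell with both agents against vehicle. Over all tested genes, 5.86% were called lower with rhWnt3a and 9.34% with both agents, and 4.74% were called when OSMI was added. These lists, too, were drawn up with earlier results of these data known. Mx1 (-4.44 ± 0.82, adjusted p = 0.00704) and Ifitm1 (-4.63 ± 0.52, adjusted p = 0.000414), which encode restriction factors, had larger estimates than Ifit3, from rhWnt3a levels of at most 0.243 and 0.179 CPM, close to the floor. Cxcl10, a chemokine that attracts T cells, was 3.79, 2.61 and 2.83 CPM with vehicle, 0.426, 0.455 and 0.538 CPM with rhWnt3a and 0.0605, 0 and 0.408 CPM with both agents (-2.68 ± 0.55, adjusted p = 0.0127). Oas3, which also fell, was likewise low outside vehicle, with 1 to 4 counts with rhWnt3a and 1 to 11 counts with both agents. Mx1, Ifitm1 and Cxcl10 passed the count filter through their vehicle libraries alone, so they were tested only because of their vehicle level. Genes of this kind could be called only lower with rhWnt3a. Mx1, Ifitm1, Cxcl10 and Oas3 are counted among the 33 that fell, and the filter without vehicle was not checked for the other genes outside the list. Ifi27 was the exception in sign and was not called (0.46 ± 0.34, adjusted p = 0.555). Of 13 tested partners in antigen presentation 5 fell with rhWnt3a, among them the nonclassical class I genes H2-Q4 (-2.77), H2-T22 (-0.81) and H2-T23 (-0.75), the peptide-trimming enzyme Erap1 (-0.67) and the tapasin relative Tapbpl (-0.60). With both agents 8 of the 13 fell against vehicle. H2-T23 was 83.1, 94.0 and 101 CPM with vehicle, 42.6, 72.5 and 49.8 CPM with rhWnt3a and 32.4, 29.3 and 32.2 CPM with both agents, and it fell again when OSMI was added (-0.81 ± 0.19, adjusted p = 0.0411). The calls of Cxcl10 and Tapbpl with rhWnt3a and both calls of H2-T23 were lost when single libraries were left out, rhWnt3a replicate 3 among them.

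Genes upstream of these targets were called at shares near 8.78%, the share of all tested genes called with rhWnt3a, and nothing particular to them is read from the counts of calls. Among 15 tested receptors, kinases, transcription factors and feedback inhibitors of interferon signaling that are reported here, Socs3 rose with rhWnt3a and 14 were not called, including Ifnar1, Ifnar2, Jak1 and Tyk2. Socs3, a feedback inhibitor of JAK kinases that many cytokines induce, was 29.4, 29.6 and 33.9 CPM with vehicle, 49.7, 57.4 and 57.3 CPM with rhWnt3a and 28.8, 26.7 and 35.4 CPM with both agents. It rose with rhWnt3a (0.82 ± 0.14, adjusted p = 0.00556) and fell when OSMI was added (-0.85 ± 0.14, adjusted p = 0.0113), as did its relative Socs1 when OSMI was added (-1.03 ± 0.25, adjusted p = 0.0462). Among 15 tested genes of nucleic acid sensing, Ddx58, which encodes the RNA sensor RIG-I (-1.20 ± 0.28, adjusted p = 0.0258), and Tlr3, an endosomal sensor of double-stranded RNA (-1.41 ± 0.23, adjusted p = 0.00334), fell with rhWnt3a, and 13 were not called. Of all tested genes 5.86% were called lower. In 7 of these 15 genes every rhWnt3a library was below every vehicle library, as in 14.2% of all tested genes. Tmem173, which encodes the adaptor STING, fell when OSMI was added (-0.97 ± 0.21, adjusted p = 0.0288), a comparison in which 3.05% of all tested genes were called lower. Of the calls named here, that of Ddx58 with rhWnt3a was lost without rhWnt3a replicate 1, and those of Socs1, Socs3 and Tmem173 with OSMI were lost without replicate 1 or 2 with both agents. None of 12 interferon genes reached the count filter. Ifnb1 had 0 counts in all 9 libraries, and the highest count of any of the 12 was 7, for Ifnz in 1 library with both agents, close to the floor of 3 counts.

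**Figure D5:**
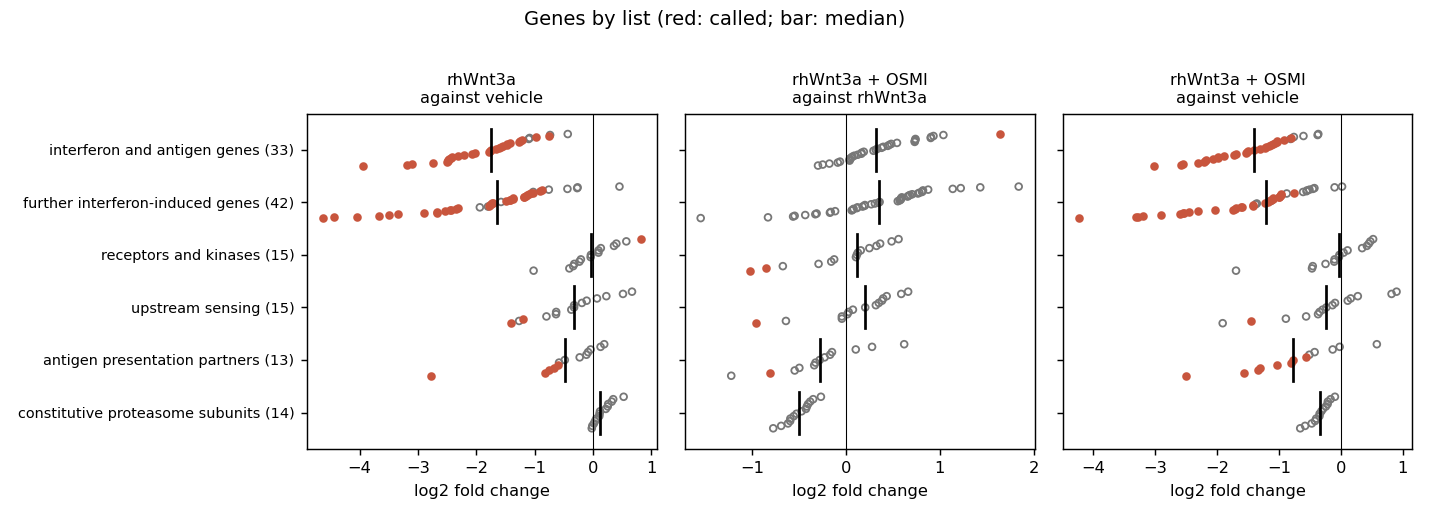
Log2 fold changes of every tested gene in the list (top) and in 5 further lists, in the 3 comparisons; red points passed the test, open points did not, black bars are medians and the number of tested genes is in parentheses. With rhWnt3a the medians of the interferon and antigen genes (-1.74) and of the further interferon-induced genes (-1.65) lie far to the left of those of the receptors and kinases (-0.03) and of the standard proteasome subunits (0.12). The further interferon-induced genes include some that were tested only because of their vehicle level.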

How the data were processed

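ST2 cells were profiled by poly(A) RNA sequencing in 9 libraries, 3 per group. The deposited table holds raw read counts per gene, which the authors obtained, per the submitters' processing notes, with CASAVA, fastp, HISAT2 (2.0.5) and featureCounts (1.5.0-p3) on mm10; the strand setting is not given in the sources used here. FPKM columns and the authors' own fold changes and p-values stand in the same table and were not used. Counts were fitted in edgeR (4.0.16, R 4.3.3) with filterByExpr (minimum count 10, minimum total 15), TMM scaling and the two-sided quasi-likelihood test over all 9 libraries and 14004 genes, with Benjamini-Hochberg adjustment. Genes past both limits (0.05 for the adjusted p, 0.5 for the absolute log2 fold change) were called. Errors beside log2 fold changes are standard errors, and n is 3 libraries per group throughout. A single value tested by exact permutation of 3 against 3 libraries cannot go below p = 0.1. The study describes its replicates as biological, but the GEO labels do not say whether they were separate cultures, and p-values may then measure technical spread only. Every replicate pair differed by more than sampling noise. Levels between genes were compared as CPM per kilobase of the gene length in the table. Given with values in every library were all genes called in at least 1 comparison and, in each role, the one with the highest CPM per kilobase. The genes and lists were chosen with earlier results of these data known. One gene of the comparison lists is not reported here. Of the table's genes, 54495 of 54532 were found in GENCODE M21, used for overlaps and, with BLAST (2.17.0; at least 97% identity over 100 bases), for near copies. The fitting scripts were tested on simulated data. DESeq2 (1.42.0) and other alternatives are given at the end.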

Additional observations from a re-analysis of the deposited data

How the results depend on the processing

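The 3 counts of interferon and antigen presentation genes called (29 with rhWnt3a, 1 when OSMI was added, 28 with both agents against vehicle) were recomputed under 20 alternatives, of which leaving out the 3 libraries that stood apart, a term for the side of the within-group axis and a gene length correction were chosen after seeing the data. The sign of each of the 33 log2 fold changes against vehicle was kept in all 20 alternatives, whereas 20 of 33 changed sign in at least 1 of them when OSMI was added. The calls of 20 of the 29 genes, of Ifit3, and of 16 of the 28 genes were kept in every alternative that could test them. Leaving out 1 library gave 20 to 30, 1 to 2 and 16 to 30 genes called in the 3 comparisons, and 716 to 1506, 203 to 764 and 1218 to 2328 of all genes. When OSMI was added, the number of these genes called was 8 without a count filter, 3 by DESeq2, 2 with 6 libraries in the fit, 6 at an unadjusted p, 8 without the 3 libraries, 9 with the side term (all higher) and 4 with the length correction. Over all genes tested (1230, 664 and 1986 called), the counts were 2155, 2271 and 3186 at an unadjusted p, 796, 380 and 1118 at a log2 fold beyond 1, 2557, 1789 and 3351 without the 3 libraries, and 2033, 4033 and 4670 with the side term. When OSMI was added they were also 1481 without a count filter, 1289 by DESeq2 and 345 with 6 libraries. Against -0.09, -0.07 and -0.25, the OSMI differences of Isg15, Usp18 and B2m turned to 0.42, 0.089 and 0.13 with the length correction. That of B2m was 0.19 without the 3 libraries, and leaving out 1 library gave -0.29 to 0.11 for Isg15 and -0.39 to 0.12 for Usp18, above 0 without rhWnt3a replicate 2 or without replicate 1 or 2 with both agents. The cause of these shifts was not tested. Levels near the floor of 3 counts (Oasl1, and Rsad2 with both agents) limit what depth can show.

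The groups share replicate numbers, but same-numbered libraries did not deviate together (correlations over 14004 genes of 0.44, -0.49 and -0.49 between rhWnt3a and vehicle, -0.31, 0.37 and 0.33 between the rhWnt3a groups with and without OSMI, and -0.32, -0.20 and -0.41 between both agents and vehicle), so the numbers were not taken as pairs. With the replicate number as a block, 27, 1 and 24 of these genes and 809, 233 and 1297 of all genes were called.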
